A study of Homo sapiens with 2 samples.

Results

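The stretch of chromosome 6 described here runs from base 28500001 to base 46000000 (GRCh38) and holds the major histocompatibility complex (MHC) and the gene-rich band 6p21 around it. Its members are the peaks of histone H3 lactylated at lysine 18 (H3K18la) whose start lies between these limits, in a list called on 1 chromatin immunoprecipitation library of H1299 cells. They were chosen by a rule on position alone, though with earlier results of these data known. There were 423 such peaks of 28695 in the whole list, or 1.47% of the peaks on 0.578% of the length.

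H1299 is an established line from a human non-small cell lung cancer. The labels name no treatment, and both libraries of the series came from formaldehyde-fixed H1299 chromatin, 1 precipitated with the antibody anti-H3K18la and 1 an input. Only the anti-H3K18la library has a peak list, and the design text speaks of IgG where the labels speak of input, so that the control of the peak calls is not settled. The peak names begin with NC, which no label explains, and the assignment of the list to anti-H3K18la rests on the labels.

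With 1 library and no replicates there is no test, no p-value and no measure of the spread between cultures. Intervals below are exact 95% Poisson or Clopper-Pearson intervals, which cover counting error only and treat clustered peaks as independent. The read depth is unknown. Of the marker genes looked at, the epithelial KRT7, KRT8, KRT18 and KRT19 had a peak at a gene end of 6.09 to 7.58-fold and the mesenchymal VIM of 8.09-fold. The leukocyte genes PTPRC, CD3E, CD14 and CD74 had none, and CIITA, the master activator of MHC class II genes, had a peak of 4.54-fold. The first peak inside the lower limit (chr6:28587476-28587885) had 2.80-fold enrichment and the last one outside it 4.85-fold. At the upper limit the last peak inside (chr6:45714303-45714688) had 3.31-fold enrichment and the next outside 5.24-fold.

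The MHC is arranged in blocks of genes. The class I block holds heavy chains such as HLA-B and HLA-C, which nearly all nucleated cells use to show peptides from inside the cell to T cells, among many genes with no immune role. The class III block holds complement, tumour necrosis factor and heat shock genes in a dense array of housekeeping genes. The class II block holds the chains that professional antigen-presenting cells use to show peptides taken up from outside, with the peptide transporter and immunoproteasome genes that feed class I in their midst. Lactylation of histone lysines draws on lactate, the end product of glycolysis, and H3K18la is known from other work to sit mostly at active promoters and enhancers.

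Promoter sequences give a first view of where the peaks lay. The 250 bases before an annotated start are printed for 8 genes, 5′ to 3′ on the gene's own strand, with each CpG dinucleotide in capitals (RefSeq, GRCh38.p14). The first 3 belong to the genes under the 3 strongest peaks, all coding for proteins with or around bromodomains, which read acetylated lysines. BICRAL, a subunit of a BAF chromatin remodelling complex, lies at chr6:42781802-42782051 (plus strand). BRD2, a BET protein, is at chr6:32968344-32968593 (plus strand), and BRPF3, a scaffold of histone acetyltransferase complexes, at chr6:36196494-36196743 (plus strand).
BICRAL: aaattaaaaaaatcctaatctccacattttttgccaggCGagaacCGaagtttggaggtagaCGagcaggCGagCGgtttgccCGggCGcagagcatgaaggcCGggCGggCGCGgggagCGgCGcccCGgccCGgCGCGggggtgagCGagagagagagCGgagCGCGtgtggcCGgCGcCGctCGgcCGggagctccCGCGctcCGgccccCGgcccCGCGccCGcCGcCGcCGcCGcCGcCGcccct
BRD2: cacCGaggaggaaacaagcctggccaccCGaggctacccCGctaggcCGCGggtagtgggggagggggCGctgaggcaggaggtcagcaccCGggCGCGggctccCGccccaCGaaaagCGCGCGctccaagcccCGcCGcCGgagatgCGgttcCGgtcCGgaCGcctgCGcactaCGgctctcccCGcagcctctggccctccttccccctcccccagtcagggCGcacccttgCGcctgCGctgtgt
BRPF3: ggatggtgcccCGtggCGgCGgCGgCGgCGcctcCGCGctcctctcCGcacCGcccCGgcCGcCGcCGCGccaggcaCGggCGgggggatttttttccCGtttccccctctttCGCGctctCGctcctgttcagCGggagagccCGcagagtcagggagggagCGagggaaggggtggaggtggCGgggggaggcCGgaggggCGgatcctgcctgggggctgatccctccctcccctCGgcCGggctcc

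PSMB9, an immunoproteasome subunit, at chr6:32853942-32854191 (plus strand), and MICA, a stress-induced ligand of the receptor NKG2D, at chr6:31403345-31403594 (plus strand), are immune genes whose start lay under a peak.
PSMB9: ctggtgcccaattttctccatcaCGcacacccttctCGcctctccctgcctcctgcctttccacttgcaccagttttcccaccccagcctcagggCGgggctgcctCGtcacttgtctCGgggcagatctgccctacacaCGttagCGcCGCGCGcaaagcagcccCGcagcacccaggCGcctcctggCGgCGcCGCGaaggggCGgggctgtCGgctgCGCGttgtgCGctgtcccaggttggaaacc
MICA: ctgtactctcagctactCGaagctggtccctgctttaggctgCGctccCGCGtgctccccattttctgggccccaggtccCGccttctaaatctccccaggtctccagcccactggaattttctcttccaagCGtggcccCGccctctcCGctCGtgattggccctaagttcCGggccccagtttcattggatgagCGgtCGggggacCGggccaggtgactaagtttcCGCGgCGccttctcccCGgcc

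HLA-B at chr6:31357180-31357429 (minus strand) was next to a peak but not under it. HLA-DRB1, a class II chain, at chr6:32589849-32590098 (minus strand), and the olfactory receptor gene OR2J3 at chr6:29107808-29108057 (plus strand) stand for the gene families in which no start lay under a peak.
HLA-B: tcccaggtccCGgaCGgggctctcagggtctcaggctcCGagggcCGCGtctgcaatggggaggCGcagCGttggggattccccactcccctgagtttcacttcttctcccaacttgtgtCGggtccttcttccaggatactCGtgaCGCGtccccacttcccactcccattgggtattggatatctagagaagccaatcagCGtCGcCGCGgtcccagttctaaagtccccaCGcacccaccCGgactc
HLA-DRB1: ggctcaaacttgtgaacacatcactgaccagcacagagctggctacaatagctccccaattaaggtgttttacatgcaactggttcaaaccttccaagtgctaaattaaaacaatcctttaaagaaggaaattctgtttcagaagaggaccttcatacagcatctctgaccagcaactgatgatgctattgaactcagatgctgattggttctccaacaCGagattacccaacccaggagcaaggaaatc
OR2J3: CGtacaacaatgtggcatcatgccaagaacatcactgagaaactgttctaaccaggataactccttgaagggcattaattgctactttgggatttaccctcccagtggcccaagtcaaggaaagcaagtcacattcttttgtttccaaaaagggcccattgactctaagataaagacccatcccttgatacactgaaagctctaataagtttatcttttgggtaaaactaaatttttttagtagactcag

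The sequences differed in CpG number as well as in peaks. BICRAL held 39 CpG dinucleotides, BRPF3 29, BRD2 27, PSMB9 21, and MICA and HLA-B 17 each, against 1 each in HLA-DRB1 and OR2J3. HLA-B thus had as many as MICA and no peak over its start.

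H3K18la peaks were crowded along this stretch. There were 24.2 peaks per Mb (21.9 to 26.6), against 9.76 on the rest of chromosome 6 and 9.47 over the whole list. Protein-coding genes were denser too, with 19.1 per Mb here, 4.62 on the rest of chromosome 6 and 6.56 over the whole list. The part of gene density in the number of peaks was not tested. Among whole chromosomes, chromosome 19 came nearest with 25.3 peaks per Mb, followed by chromosome 17 with 17.8. Peaks covered 3.92% of the bases here and 1.47% over the list. The peaks were no stronger and little wider than elsewhere, with a median of 4.37-fold enrichment (4.36 over the list) and 1327 bp (1250 over the list). Their widths ran from 288 to 10088 bp. A background read count per peak, solved from the deposited fold and p under a Poisson model, had a median of 5.68 here, 4.56 on the rest of chromosome 6 and 3.83 over the list. Its part in the number of peaks was not tested.

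**Figure D1:**
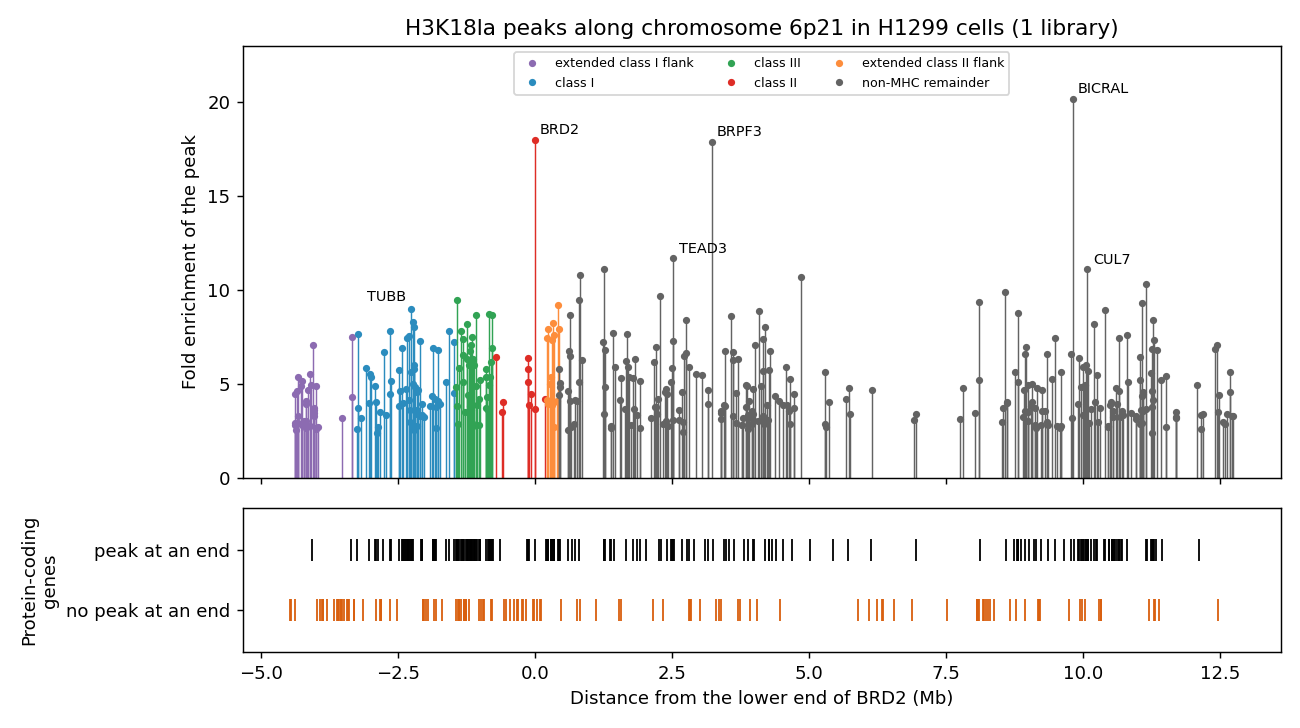
Fold enrichment of each of the 423 peaks (upper panel, 1 stem per peak, coloured by stretch) and the middle of each of the 334 protein-coding genes (lower panel, split by whether a peak lay within 1000 bp of a gene end) against the distance from the lower end of BRD2 in Mb. BICRAL, BRD2 and BRPF3 stand above all other peaks at 20.2, 18 and 17.9-fold, and peaks are sparse over the class II stretch left of BRD2 and again about 6 to 8 Mb to its right.

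The stretches were set by gene ends, 6 in all, and differed severalfold in peak number. Class I ran from ZFP57 to MICB (chr6:29672392-31511124), class III from there to NOTCH4 (chr6:31511125-32224067), and class II from there to COL11A2 (chr6:32224068-33162693). The flank below class I (chr6:28500001-29672391) and the extended class II flank up to KIFC1 (chr6:33162694-33409896) were kept apart, and the non-MHC remainder was chr6:33409897-46000000. The class III stretch had 41 peaks on 0.713 Mb, or 57.5 per Mb (41.3 to 78.0). The small extended class II flank had 16 peaks and 64.7 per Mb (37.0 to 105). Class I had 62 peaks and 33.7 per Mb (25.9 to 43.2), the flank below it 34 peaks and 29.0 per Mb (20.1 to 40.5), and the remainder 259 peaks and 20.6 per Mb (18.1 to 23.2). Class II had 11 peaks and 11.7 per Mb (5.85 to 21), the lowest of the 6.

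The ratio of class III to class II was 4.91 (2.48 to 10.6), and that of class I to class II 2.88 (1.5 to 6.06). Class III exceeded the remainder 2.80-fold (1.96 to 3.90) and class I exceeded it 1.64-fold (1.22 to 2.17). For class II against the remainder the ratio was 0.570 with an interval of 0.281 to 1.04, which spans equality. With the 2 flanks counted in the remainder it was 0.531 (0.262 to 0.964), which does not. Gene density went the same way in part. Class III had 82.8 protein-coding genes per Mb and class II 21.3, a ratio of 3.88, so that class III had 0.695 peaks per gene and class II 0.550. The remainder, with 13.2 genes per Mb, had 1.56 peaks per gene. The median background count solved from fold and p lay between 5.53 and 6.17 in all 6 stretches, and was 5.88 in class II and 5.78 in class III. This count exists only at called peaks, 11 of them in class II, and does not describe intervals without a peak. The part of background in these differences was not tested.

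Most class III peaks lay at an end of a protein-coding gene, and few peaks of the flank below class I did. A peak was counted at a gene end when it overlapped, by at least 1 bp, a window of 1000 bp on either side of either end of a protein-coding gene. This held for 30 of 41 class III peaks (73.2%, 57.1 to 85.8) and 14 of 16 peaks of the extended class II flank (87.5%, 61.7 to 98.4), beside 37.4% over the whole list. In class I it held for 26 of 62 (41.9%), in class II for 6 of 11 (54.5%), in the remainder for 98 of 259 (37.8%), and in the flank below class I for 2 of 34 (5.88%). In total 176 of the 423 peaks (41.6%) lay at a gene end. Median fold followed a similar order, with 5.35 in class III, 5.20 in the extended class II flank, 4.5 in class I, 4.48 in class II, 4.16 in the remainder and 3.37 in the flank below class I. Gene ends were also denser in some stretches. Class III had 82.8 protein-coding genes per Mb and the extended class II flank 64.7. Class I had 27.2, class II 21.3, the flank below class I 19.6 and the remainder 13.2. The part of gene density in the share of peaks at gene ends was not tested.

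Read by gene, 207 of 334 protein-coding genes (62.0%) had a peak at an end, close to the 59.1% of all protein-coding genes. All 16 genes of the extended class II flank had one (79.4 to 100%), as did 34 of 50 in class I (68.0%, 53.3 to 80.5), 40 of 59 in class III (67.8%, 54.4 to 79.4) and 109 of 166 in the remainder (65.7%, 57.9 to 72.8). Class II had 6 of 20 (30.0%, 11.9 to 54.3) and the flank below class I 2 of 23 (8.70%, 1.07 to 28). Both of these intervals lie below 59.1%. The end that carried the peak was mostly the start of the gene. Of 168 genes longer than 10 kb whose strand is known, 92 had a peak at the 5′ end only, 6 at the 3′ end only, 14 at both and 56 at neither. An annotated start lay under a peak in 167 of 296 genes with a promoter sequence (56.4%), against 57.1% of all such genes.

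**Figure D2:**
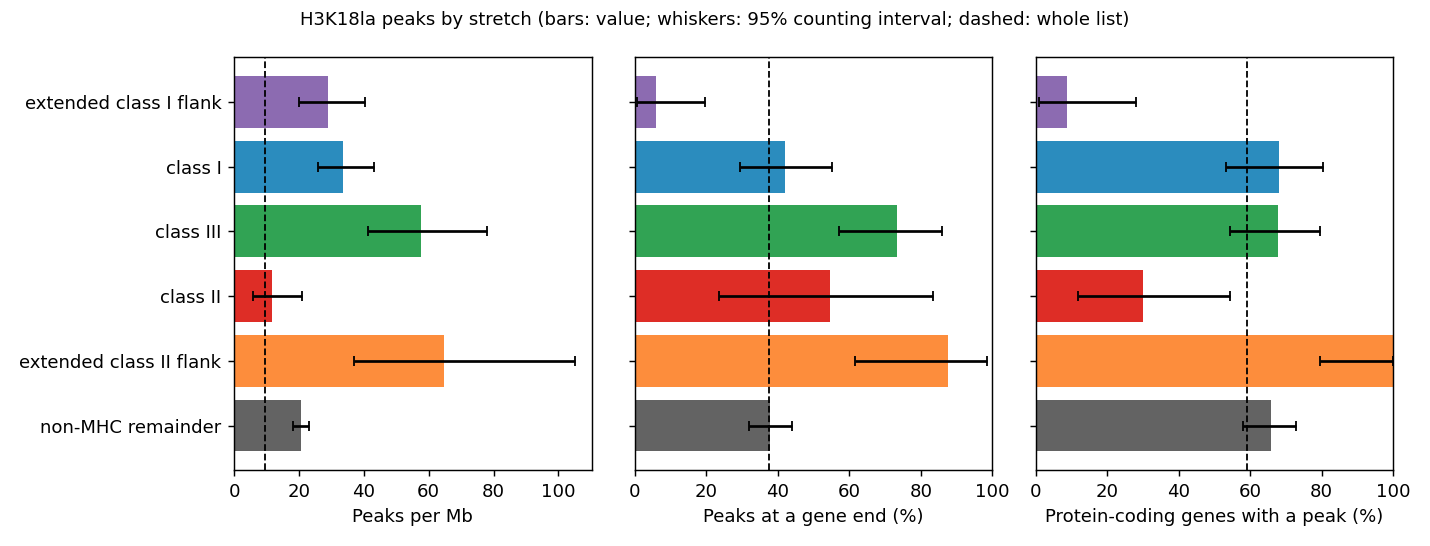
Peaks per Mb (left), percent of peaks at a gene end (middle) and percent of protein-coding genes with a peak at an end (right) for the 6 stretches, with bars for the value, whiskers for the 95% counting interval and a dashed line for the whole list. Class III and the extended class II flank are highest in the left and middle panels, and class II and the flank below class I are lowest in the right panel at 30.0% and 8.70%.

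Among the class I heavy chain and class I-like genes described here, the strongest peaks belonged to the stress ligands. MICA had a peak of 7.79-fold that was 5152 bp wide (chr6:31399111-31404262), and its neighbour MICB, a ligand of the same receptor, a peak of 7.24-fold (chr6:31493948-31496794). MICA's peak covered its annotated start. That of MICB lay at the outer end of the gene, and a second peak inside MICB, of 4.54-fold (chr6:31497621-31498915), covered its annotated start. HLA-E, which shows leader peptides of other class I chains to natural killer cells, followed with 5.76-fold (chr6:30488975-30490238).

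HLA-B and HLA-F had weaker and narrower peaks. HLA-B had a peak of 5.11-fold (chr6:31356474-31356790) that lay inside the gene near its start, 317 bp wide. HLA-F, a chain with restricted expression, had 2.59-fold (chr6:29723465-29724017). HLA-C and HLA-G, the chain of the placenta, had no peak in or near the gene. The peak of HLA-F had −log10 q of 2.63 and was lost with a minimum of 5 for that value. The HLA genes resemble each other closely, and how reads that match several places were handled is not given in the sources used here, so the values of single HLA genes are uncertain.

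Class I peptides are cut by the immunoproteasome, carried into the endoplasmic reticulum by the TAP1 and TAP2 transporter and loaded with the help of tapasin, the product of TAPBP. All 5 of these MHC genes had a peak at an end (interval 47.8 to 100%), beside 59.1% of all protein-coding genes. TAP2 had 5.81-fold (chr6:32837727-32838827). PSMB8 had 6.36-fold at its start (chr6:32843527-32844670), a peak that also fell within 1000 bp of the far end of TAP1. PSMB9 and TAP1 are divergent neighbours, and their shared start region carried a peak of 5.12-fold (chr6:32852935-32854937). TAPBP, in the extended class II flank, had 2 peaks. Its start lay under one of 7.61-fold shared with ZBTB22 (chr6:33313003-33315159), and its 3′ end was beside one of 8.22-fold at the start of RGL2 (chr6:33297628-33300613). The first 4 of these genes lay in a run of 4 peaks over 24.0 kb in the class II stretch.

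None of the 13 class II chain genes had a peak at an end or anywhere in the gene, for which the upper Clopper-Pearson limit is 24.7%. Of all protein-coding genes 59.1% had a peak at an end, and 66.7% had one at an end or in the gene. The list comprises HLA-DRA, HLA-DRB1, HLA-DRB5, HLA-DQA1, HLA-DQB1, HLA-DQA2, HLA-DQB2, HLA-DPA1 and HLA-DPB1, which bind peptide, and HLA-DMA, HLA-DMB, HLA-DOA and HLA-DOB, which steer peptide loading. An interval of 452 kb with no peak (chr6:32385942-32837726) held 9 genes, BTNL2 and 8 class II chains from HLA-DRA to HLA-DOB. A second one of 187 kb (chr6:32973723-33161185) held HLA-DOA, HLA-DPA1 and HLA-DPB1. The 452 kb interval ended at the peak of TAP2, and the 187 kb interval began inside BRD2. As the handling of reads that match several places is not given, the lack of peaks over these HLA genes is uncertain. CD74, the invariant chain that escorts class II chains and lies on chromosome 5, had no peak either, while CIITA had one.

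BRD2 stood out inside this stretch. Its peak of 18-fold (chr6:32966883-32971759) was 4877 bp wide, had −log10 q of 114, and ranked at 12 of 28695 by fold. The other 10 peaks of the class II stretch had 3.50 to 6.41-fold enrichment, the strongest of them between genes at chr6:32254790-32256600, beside the long non-coding RNA TSBP1-AS1. The next peak to the right of BRD2's, inside the gene and over another annotated start of it, had 3.66-fold.

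Around the HLA genes of the class I stretch, genes of general cell function were listed as framework genes. Of these 22 genes 21 had a peak at an end, against 59.1% of all protein-coding genes, with a median of 5.64-fold and 16 of them sharing the peak with a neighbour. TUBB, a beta-tubulin, had the highest of the class I stretch at 9.01-fold (chr6:30719441-30722218). FLOT1, a membrane raft protein, and IER3, an early response gene that protects from apoptosis, shared 8.32-fold. PPP1R18 and NRM, a nuclear envelope protein, shared 7.54-fold, over a peak of 7026 bp. PPP1R10 and MRPS18B shared a peak of 6308 bp with 4.74-fold. POU5F1, the pluripotency factor OCT4, had none.

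A run of 8 peaks began at FLOT1 and IER3 and went on over sequence without protein-coding genes (chr6:30741725-30783387). Peaks in it were joined where they lay at most 12.5 kb apart, and they covered 21.6 of its 41.7 kb. It held a peak of 6090 bp (chr6:30748111-30754200) and one of 8.03-fold beside the long non-coding RNA HCG20 (chr6:30767732-30771306).

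Of 7 listed TRIM genes, which code for ubiquitin ligases of antiviral defence and other roles, 4 had a peak at an end (57.1%). This share is near the 59.1% of all protein-coding genes. TRIM39 had 7.83-fold, TRIM27 7.09, TRIM26 6.68 and TRIM31, at its 3′ end, 2.68, and TRIM10, TRIM15 and TRIM40 had no peak at an end. Of 7 skin and mucosal genes only CDSN, the corneodesmosin of the outer skin, and PSORS1C1 had a peak at an end, 1 and the same of 6.91-fold, which lay at the 3′ end of CDSN. The mucin genes MUC21, MUC22 and MUCL3 had none there, nor did PSORS1C2 and SFTA2. The interval for 2 of 7 was 3.67 to 71.0%, which includes 59.1%.

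In class III all 25 listed genes for RNA, chromatin, protein quality and related functions had a peak at an end. The share of all protein-coding genes was 59.1%. This list too was drawn up with earlier results of these data known, so its share is description only. The folds had a median of 6.34 and a range from 3.49 to 8.70, and 21 of the 25 genes shared the peak with another gene. The highest were ATF6B, a sensor of endoplasmic reticulum stress, with FKBPL at 8.70-fold (chr6:32127746-32128802), and PBX2, a homeobox factor, at 8.68-fold (chr6:32189045-32193260). ZBTB12 had 8.66-fold. CLIC1, a chloride channel, and MSH5, a meiotic recombination protein, shared 8.20-fold over a peak of 6854 bp. Of 10 tissue-restricted class III genes 7 had a peak at an end (interval 34.8 to 93.3%), a share near that of all genes. The highest were GPSM3 at 8.68-fold with PBX2's peak, NOTCH4 at 6.90, APOM at 6.53 and SLC44A4 at 5.99. The peaks of NOTCH4 and SLC44A4 lay at their 3′ ends, shared with GPSM3 and NEU1, and no promoter window of NOTCH4, SLC44A4 or APOM was under a peak. CYP21A2, the steroid 21-hydroxylase, AGER, a receptor of lung alveolar cells, and EGFL8 had none.

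Of 7 TNF family and inflammatory genes of class III, 3 had a peak at an end (42.9%, 9.90 to 81.6). The share of all protein-coding genes, 59.1%, lies in that interval. TNF, LST1, NCR3 and AIF1 had none. LTA, which codes for lymphotoxin alpha, and NFKBIL1 shared the highest peak of class III at 9.47-fold (chr6:31558668-31562202), which covered the far upstream end of the LTA gene as annotated. The promoter windows in the RefSeq table for LTA, with starts at 31571849 and 31572039, were not under a peak. LTB, lymphotoxin beta, had 5.83-fold, with no promoter window under the peak. A window of 3000 bp in place of 1000 bp raised the count of this list from 3 to 5 of 7.

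Of the complement genes C2 alone had a peak at an end, 4.90-fold and shared with EHMT2, a histone methyltransferase. The interval for 1 of 4 was 0.631 to 80.6%, which includes the 59.1% of all protein-coding genes. CFB had a peak of 2.82-fold inside the gene only, and C4A and C4B had none. C4A and C4B are near-identical copies, as are HSPA1A and HSPA1B, so each is uncertain. The inducible heat shock gene HSPA1A shared 7.05-fold with the divergent HSPA1L (chr6:31813648-31815841), and HSPA1B had 2.94-fold. They lay in a run of 9 peaks over 44.1 kb that began at VARS1 and ended with a peak of 6.34-fold beside the long non-coding RNA gene SNHG32 (chr6:31834125-31836677). None of the 6 genes of the LY6 list, MPIG6B among them, had a peak at an end (upper limit 45.9%).

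The extended class II flank had a peak at each of its 14 listed genes, as at all 16 of its genes, beside 59.1% of all protein-coding genes. Of the 14 genes 12 were on a shared peak. KIFC1, a mitotic kinesin, had 9.22-fold (chr6:33391755-33392604), RGL2 8.22, and RING1, a Polycomb ubiquitin ligase, SLC39A7, a zinc transporter, and HSD17B8 shared 7.92-fold. DAXX, a histone H3.3 chaperone, had 4.05-fold. A run of 9 peaks over 75 kb reached from VPS52 to SMIM40.

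**Figure D3:**
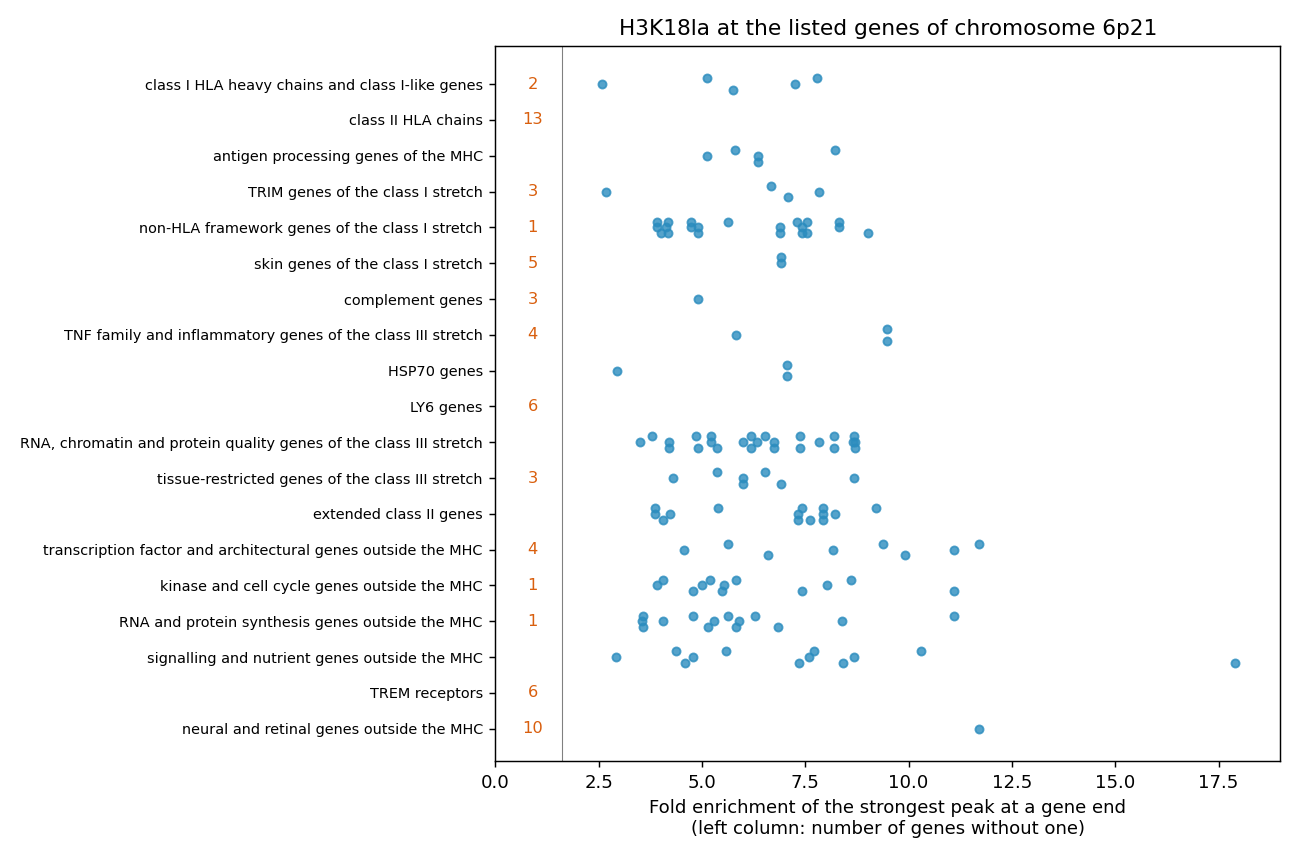
Fold enrichment of the strongest peak at a gene end for the genes of the 19 lists (1 point per gene, 1 gene not drawn, spread vertically for legibility), with the number of genes without such a peak in the left column. Class II chains, LY6 genes and TREM receptors have no point, and BRPF3 at 17.9-fold is the farthest to the right.

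The flank below class I had most of its peaks near transfer RNA genes. It holds a large cluster of transfer RNA genes and a cluster of olfactory receptor genes, the odorant receptors of the nose. All 40 tRNA genes of the stretch lay in this flank, and 27 of them (67.5%) had a peak within 1000 bp, against 55.7% of all tRNA genes in the annotation. In 11 the peak overlapped the gene and in 16 it lay beside it, as at TRT-CGT3-1, 13 bp from a peak of 5.35-fold (chr6:28648293-28649549). Of the 34 peaks of the flank 21 (61.8%) were within 1000 bp of a tRNA gene. They were weak, with a median of 3.28-fold (2.56 to 5.35), as were the other 13 with 3.47-fold. Peaks between genes in the remainder had a similar median of 3.56-fold. By amino acid, 9 of 15 alanine genes, 5 of 6 phenylalanine genes, all 4 leucine genes and none of 3 arginine genes had a peak. Many tRNA genes are copies of each other, so single ones are uncertain.

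None of the 14 olfactory receptor genes had a peak at an end, as was true of nearly all such genes (0.771% with a peak over the genome). An interval of 430 kb without a peak (chr6:29017233-29447201) held 10 of them, OR2W1, OR2B3, OR2J1, OR2J3, OR2J2, OR14J1, OR5V1, OR12D3, OR12D2 and OR10C1. Only TRIM27, with 7.09-fold (chr6:28922557-28924529), and GABBR1, a GABA-B receptor subunit, with 7.49-fold (chr6:29632223-29633714), had a peak at a protein-coding gene end in the flank. These were also its 2 strongest peaks.

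Outside the MHC the strongest peaks of the whole stretch were found. Of all 423 peaks 9 reached 10-fold (2.13%, against 2.93% of the list), and 8 of these were in the remainder, BRD2 being the other. BICRAL had the strongest with 20.2-fold and −log10 q of 137 (chr6:42780525-42784435), 3911 bp wide and ranking at 4 of 28695. It lay inside the gene, 34186 bp from its nearest end, over an annotated start and beside the long non-coding RNA LOC401261. The lower end of BICRAL, shared with TBCC, had 6.6-fold. BRPF3 had 17.9-fold (chr6:36195894-36197766) and ranked at 13.

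The other peaks above 10-fold were well below these 3. They lay at TEAD3, the transcription factor of the Hippo pathway, with TULP1 (11.7-fold, chr6:35496111-35498451), at CUL7, a ubiquitin ligase scaffold, with MRPL2 (11.1-fold, chr6:43052884-43054427), and at HMGA1, an architectural chromatin protein raised in many cancers (11.1-fold, chr6:34234562-34239979). LEMD2 had 10.8-fold, ZFAND3 10.7, and MRPL14 with TMEM63B 10.3. FOXP4 followed with 9.92-fold.

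Most listed genes of the remainder had a peak at an end, to be read against 59.1% of all protein-coding genes. Their lists were drawn up with earlier results of these data known, so the shares are description only. All 12 placed signalling and nutrient genes had a peak, from PTK7 at 2.93-fold to ITPR3 at 8.67 and BRPF3 at 17.9, with FKBP5, a glucocorticoid-induced co-chaperone, at 8.40. VEGFA, the vascular growth factor, had 7.59-fold (chr6:43769685-43772573), and GLO1, the enzyme that detoxifies the glycolytic by-product methylglyoxal, 4.78. Of 13 kinase and cell cycle genes 12 had a peak, with STK38 at 8.61, PIM1, a survival kinase, at 8.02 and MAD2L1BP at 7.42 behind CUL7. Of 15 genes for RNA and protein synthesis 14 had one, with HSP90AB1, the constitutive HSP90, at 8.39 and AARS2 at 6.83. The list of 12 transcription factor and architectural genes also holds TBCC and TCP11, which are neither. Of these 12 genes 8 had one (66.7%, 34.9 to 90.1), a share near that of all genes. Among them NFYA with 9.37-fold came after FOXP4.

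Several regulators had their peak inside the gene and none at an outer end. CDKN1A, the cell cycle inhibitor p21, had 6.32-fold (chr6:36677793-36680983), over an annotated start. RUNX2, the bone-forming factor, had 7.07-fold (chr6:45421451-45424405), BYSL 6.57, SPDEF, an epithelial ETS factor, 5.30 and ETV7 3.54. With peaks inside the gene counted, 11 of the 12 genes of the transcription factor and architectural list had a peak, beside 66.7% of all protein-coding genes. TCP11, a testis gene, had none. The widest peak of all, 10088 bp with 6.94-fold (chr6:35176332-35186419), lay between genes, 27537 bp from SCUBE3. Of the 423 peaks 10 (2.36%) reached 5000 bp, against 2.42% of the list, and 5 of these were in class I.

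The listed myeloid, neural and retinal genes had few peaks at their ends, where 59.1% of all protein-coding genes had a peak. None of the 6 TREM receptor genes (TREM1, TREM2, TREML1, TREML2, TREML4 and NCR2), which signal in myeloid and natural killer cells, had one. They lay in an interval of 414 kb without a peak (chr6:41074471-41488152). The neural and retinal list of 11 genes was drawn broadly, with GLP1R, DNAH8 and 3 KCNK genes among them. Of these 11 genes TULP1 alone had a peak at an end (interval 0.230 to 41.3%). It was the peak at the start of TEAD3, which met the 3′ end of TULP1. The longest intervals without a peak were 785 kb around LRFN2, a synaptic adhesion protein (chr6:39934520-40719268), and 772 kb with the potassium channel genes KCNK5, KCNK17 and KCNK16 and the kinesin KIF6 (chr6:39115522-39887167). From 39 to 40 Mb and from 40 to 41 Mb there were 3 peaks each, and the median background count of these peaks was 3.81 and 3.37, the lowest of the bins. The part of that background in the lack of peaks was not tested. All 3 KCNK genes lacked a peak, and 27.1% of potassium channel genes over the genome had one. Of the 6 solute carrier genes of the stretch 4 had a peak (54.4% over the genome), and of its 3 zinc finger genes named ZNF, ZNF76 and ZNF318 had 9.67 and 8.93-fold and ZNF311 none (78.8% of such genes had a peak over the genome). An interval of 439 kb (chr6:37821048-38259651) lay inside ZFAND3 and BTBD9.

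Peaks also met non-coding genes. Of 173 long non-coding RNA genes 62 (35.8%) had a peak within 1000 bp of an end, against 23% of all such genes, and of 173 pseudogenes 11 (6.36%), against 2.93%. A peak beside a coding and a non-coding gene was counted for both. SCIRT, a long non-coding RNA gene in the remainder, lay in a run of 7 peaks over 40.2 kb with no protein-coding gene end, up to 9.31-fold (chr6:44034335-44074545).

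Promoters with a peak had a higher median CpG number than those without, though the 2 groups overlapped. Of 408 promoter windows (250 bases before and 50 after an annotated start), those under a peak held a median of 23 CpG dinucleotides and those without 5, against 28 and 7 over all chromosomes, where 52.8% of windows were under a peak. Windows with 0 to 4 CpG dinucleotides were under a peak in 11 of 94 cases (11.7%), those with 5 to 9 in 13 of 54 (24.1%), those with 10 to 19 in 62 of 88 (70.5%) and those with 20 or more in 146 of 172 (84.9%). Over all chromosomes the shares were 6.40%, 18.5%, 49.9% and 77.3%. By stretch the median CpG number was 2.5 in the flank below class I, 6 in class II, 11 in class III, 16 in the extended class II flank, 18 in class I and 22 in the remainder. Class III had fewer CpG dinucleotides per window than class I. A start lay under a peak in 56.6% of class III genes with a promoter sequence and 56.8% of those of class I.

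**Figure D4:**
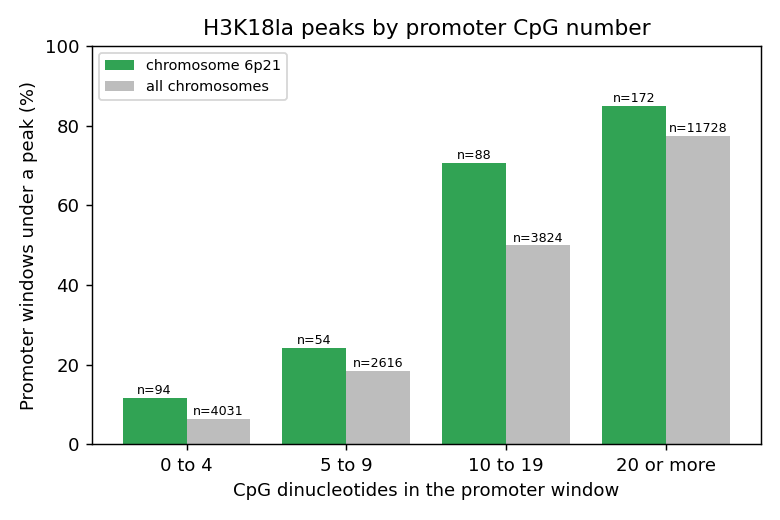
Percent of promoter windows under a peak (y axis) by number of CpG dinucleotides in the window of 300 bases (x axis), for this stretch of chromosome 6 (green) and all chromosomes (grey), with the number of windows above each bar. The share climbs from 11.7% to 84.9% in the stretch and from 6.40% to 77.3% over all chromosomes.

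Short motifs were counted in the same windows on both strands, as letters only, with overlaps between motifs allowed. GGGCGG, the core of a GC box, was in 72.4% of windows under a peak and 31.2% of those without. Over all chromosomes the shares were similar, 74.9% under a peak and 35.5% without, and 56.3% of all promoter windows held it. All 7 windows of the antigen processing genes held GGGCGG and 1 of 13 class II windows did. CCAAT was in 11 of 13 class II windows (84.6%) and 6 of 8 class I windows, against 34.7% of all and 34.8% of those in the stretch. The core repeat of the interferon-stimulated response element (ISRE), a pair of GAAA blocks spaced by any 2 bases, was in 4 of the 7 antigen processing windows, some of which overlap, against 3.17% of all. GGGGATTCC, a form of the kappa B site, was in the window of HLA-B and in no other of the 8 class I windows, against 0.324% of all. Of these 8 windows 3 belong to HLA-G. Listed genes without a promoter sequence, HLA-E among them, were not searched. In the sequences above, PSMB9 holds GGGCGG 158 and 48 bases before its start, HLA-B holds GGGGATTCC 177 bases before, and HLA-DRB1 holds CCAAT on the given strand 195 bases before and on the other strand 46 bases before.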

How the data were processed

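H3K18la ChIP-seq peaks of 1 library of H1299 cells were analysed. Per the submitters' processing notes, bcl2fastq 2.17, cutadapt 1.18, Trimmomatic 0.38, Bowtie2 2.3.4.1, Picard, MACS2 (2.1.2 and 2.1.0) and ChIPseeker were used on build hg38. Caller settings and the handling of duplicates are not given in the sources used here. The deposited list gives for each peak a fold enrichment (ratio), −log10 p and q values and a score, all the authors' own values, used only to describe, rank or filter peaks. The score was not used for any value. The highest q among these peaks was 0.0372 and the lowest fold 2.41.

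Peaks were joined to 19866 protein-coding genes of a RefSeq table (GRCh38.p14) with Python 3.11.15, pandas 2.3.3 and scipy 1.17.1. Left out were 718 entries on alternate sequences. A peak belonged to the stretch holding its start, a gene to the one holding its midpoint. The overlap step was tested on simulated data. Members and the 19 gene lists (201 genes, 200 placed) were chosen with earlier results of these data known. Genes named are those at the 10 strongest and 5 widest peaks and the 3 strongest of each stretch, the HLA and antigen processing genes, at most 4 of the strongest and at most 4 peak-less genes of each other list, and those in the 5 longest intervals without a peak. GLO1, VEGFA, DAXX, TBCC, BYSL and the long non-coding RNA genes were named after their values were seen. Alternatives were a stricter q or fold, other windows, other borders and, chosen after seeing the data, a peak over an annotated start. The values of 2 listed genes are not reported here.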

Additional observations from a re-analysis of the deposited data

How the results depend on the processing

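Of 81 ratios and shares recomputed under the alternatives, 72 stayed within the counting interval of the reported value. No ratio moved to the other side of 1, a check that was not made for shares. The share of peaks at gene ends in the remainder moved from 37.8% to 54.0% with −log10 q of at least 5, 57.5% with peaks above the list's median fold, and 30.1% where a peak had to cover the end. The share of genes with a peak became 50.0% in class I, 68.8% in the extended class II flank and 52.4% in the remainder with peaks above the median fold. It became 52.0% in class I and 55.4% in the remainder where a peak had to cover the end. Class III, with 67.8% as reported against 68.0% in class I, had 57.6% under each of these 2 alternatives. The order of class I and class III thus changed. Counting peaks anywhere in the gene gave 74.7% in the remainder, against 66.7% of all genes. Of 95 list counts 91 stayed within 1.5 times. A window of 3000 bp gave 2 complement genes in place of 1, 5 inflammatory genes in place of 3 and 1 gene of the LY6 list in place of 0. Covering the end gave 5 genes of the transcription factor and architectural list in place of 8. The unknown read depth limits all statements on genes without a peak. No paired analysis was possible because there was 1 library with a peak list.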
